A study of Homo sapiens and Mus musculus with 55 samples.

Results

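The genes described here are 30 targets of the tumour suppressor p53. They form a list of symbols, with no threshold on a measured value in its rule, and were read in 10 RNA-seq tables from 4 breast cancer cell lines. The human tables together listed 39118 distinct genes, and 28000 distinct genes were listed for mouse. All 30 members were listed in 1 table, that of MDA-MB-436 parental and Tax-R cells. The other 7 human tables listed 29, without EDA2R. The 4T1 table listed 26 by their mouse names, without SPATA18, TNFRSF10A, EDA2R and TP53I3. The Py230 table listed 28, without TNFRSF10A and TP53I3.

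p53 is a transcription factor that is stabilised by DNA damage and other stress, and its target genes halt the cell cycle, start apoptosis, repair DNA and adjust metabolism. One of its targets, MDM2, encodes the ubiquitin ligase that degrades p53, which closes a feedback loop. Many of these genes also answer to other factors: CDKN1A is repressed by MYC bound to MIZ1, and SESN2 and GDF15 are induced by ATF4 in the integrated stress response. The human lines MDA-MB-436 and SUM159PT are both triple-negative, while Py230 and 4T1 come from mammary tumours of mice.

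The groups were cells of 1 line each. The labels name the reagents, but nothing in them gives a time, a dose or how Tax-R cells were made. Parental MDA-MB-436 and SUM159PT cells, labelled as untreated, were set against cells of the same line labelled Tax-R, with 2 libraries per group. A control siRNA, MYC siRNA-1 or MYC siRNA-2 was given to Tax-R cells of each human line (2 libraries per siRNA) and to 4T1 cells (3 per siRNA), so the control cells of the human siRNA tables were Tax-R as well. Mock cells, labelled parental for CRISPR, were set against 2 groups with a STING sgRNA, C1 and C2, with 2 libraries per group in MDA-MB-436 and SUM159PT. The labels do not say whether C1 and C2 are clones. Cells of both lines with a STING sgRNA plus a GFP open reading frame (ORF) were set against cells with the STING sgRNA plus a STING ORF, again with 2 libraries per group, so both groups of these tables carried the sgRNA. Py230 cells carrying an shRNA to Sting1 received either doxycycline or its vehicle (3 libraries apiece). The tables list STING1 under its older symbol TMEM173.

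Values are normalized counts, which is reads divided by 1 factor per library. Each table was normalized on its own, so levels are compared only within a table, and only for the same gene. Marker lists are the exception, since they are read as the sum of their genes' values. The most abundant genes weigh most in such a sum, so it does not show how each marker moved. Libraries held 5663610 to 13191675 reads. A change is the difference of group means on the log2(value + 1) scale with its standard error (SE). Genes said to rise, to fall, or to be higher or lower had an adjusted p below 0.05 in limma's test over all genes of that table with a mean of at least 10. Nothing in the labels says that the libraries of a group came from separate cultures, so these p-values measure only the spread between these libraries. In bulk RNA, fewer cells that express a gene and less of its RNA per cell cannot be told apart. The 2 MDA-MB-436 Tax-R libraries differed by less than sampling noise (mean chi-square per gene 0.855, against 1.019 to 2.731 in the other groups), so each result on them is also judged with both counted as 1 sample. The epithelial keratins KRT8 and KRT18 were present in each library, while EPCAM was at 24.6 or below in each library of the human lines.

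Across the 10 comparisons the members did not move as a block. Of 30 genes, 25 were higher in at least 1 comparison and lower in at least 1 other, and 24 were called in at least 50% of the comparisons that tested them. Per comparison, 21.1% to 69.5% of all genes tested were called. Neither count was made over all genes, so neither can be called particular to the members. Exceptions to the mixed direction were MDM2 (higher in 4, lower in 0), PPM1D (higher in 0, lower in 4), TIGAR (higher in 1, lower in 0), SPATA18, which was tested only in MDA-MB-436 parental and Tax-R cells and was lower there, and EDA2R, which was tested only in Py230 and not called. The strongest single responder by number of calls was CDKN1A, which encodes the cyclin-dependent kinase inhibitor p21 and was called in 9 of 10 comparisons, 6 of them upward. PMAIP1, which encodes the pro-apoptotic protein NOXA, was called in 7 of the 8 that tested it, 6 of them downward. BAX and PHLDA3 were each called in 8, with 5 upward and 3 downward. Between 24 and 29 members were tested per comparison. Those left out for low values were SPATA18 in each table that lists it apart from MDA-MB-436 parental and Tax-R cells, TP53INP1 in 5 human tables, GDF15 in SUM159PT with STING sgRNA, EDA2R in MDA-MB-436 Tax-R and parental cells, and Gdf15 and Pmaip1 in both mouse lines, so these calls cover the tested members and not all 30.

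**Figure D1:**
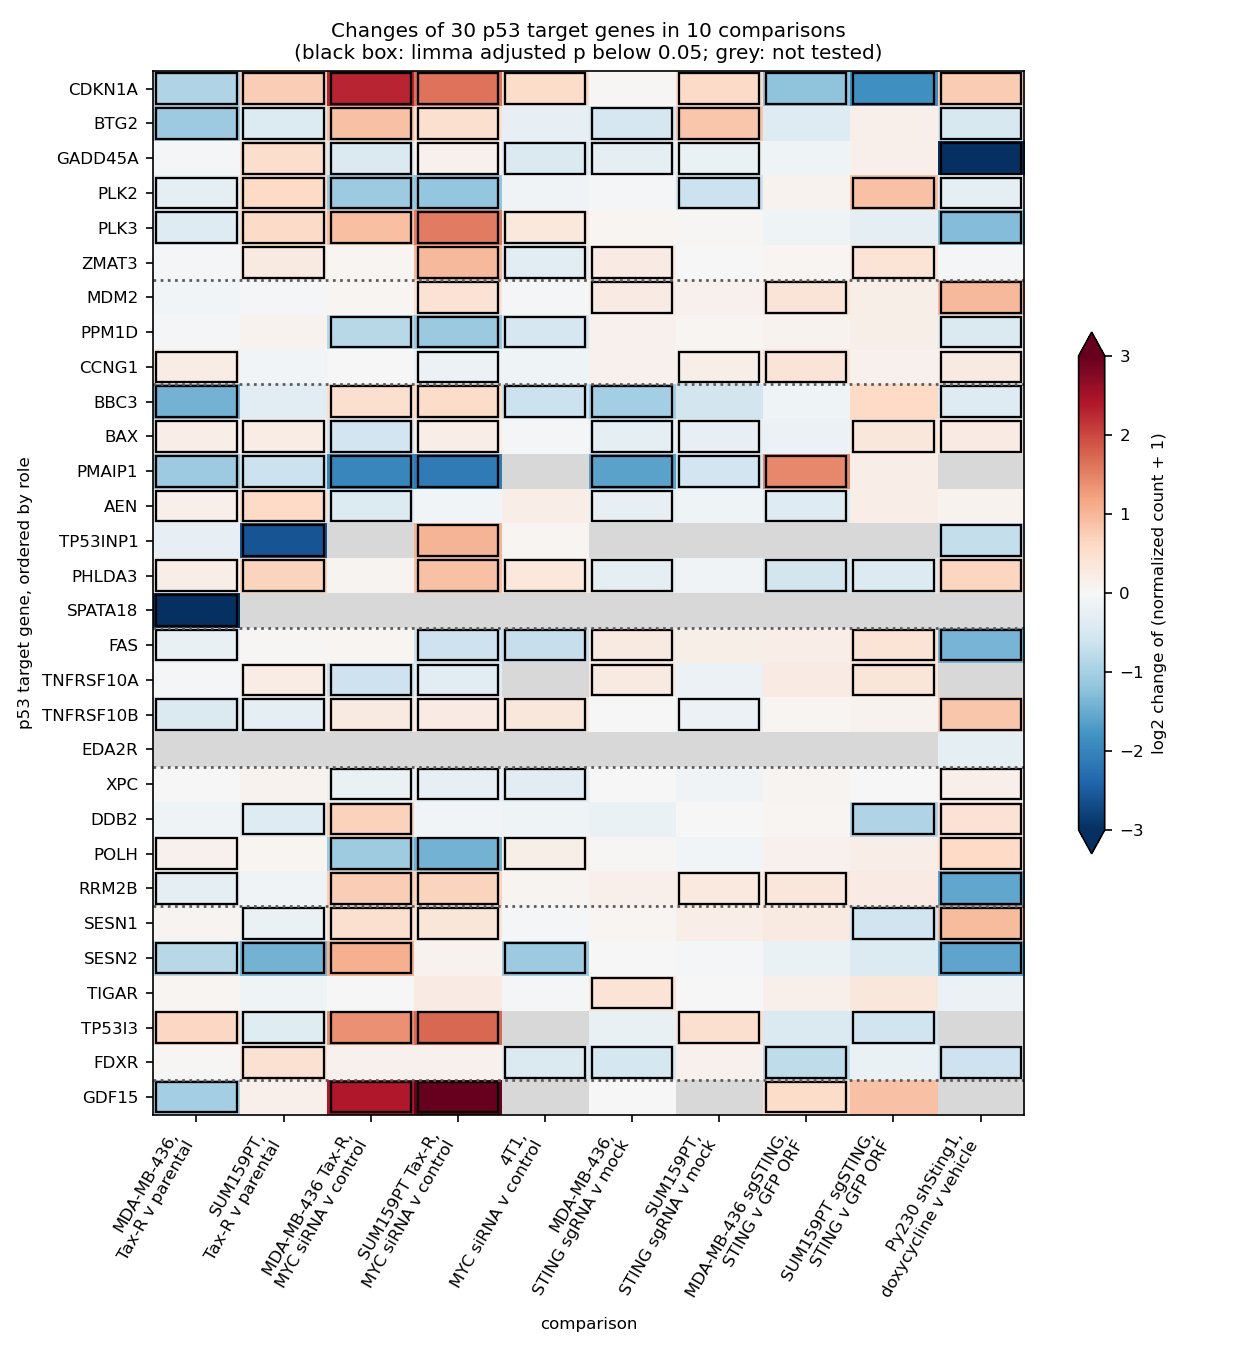
Log2 change of (normalized count + 1) for the 30 p53 target genes (rows, ordered by role, with dotted lines between roles) in the 10 comparisons (columns). Red is higher and blue lower in the first-named group, colours stop at 3 either way, black boxes mark adjusted p below 0.05 and grey cells were not tested. Most rows hold both colours, and the dark SPATA18 cell rests on 1 read in the Tax-R group.

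For 24 of the 30 members RefSeq (GRCh38.p14) gave 1 or more windows from 250 bases before to 50 bases after the gene's start, 36 windows in all. No window was matched for GADD45A, TP53INP1, PHLDA3, TNFRSF10A, TNFRSF10B and RRM2B. Both strands were searched for the letters CACGTG (the E-box that MYC-MAX recognises) and for GGGCGG or CCGCCC (the GC box). They were also searched for TATAAA (the TATA box) and for the p53 response element. That element was taken as 1 repeat, or as a full site of 2 repeats with at most 1 base between them. No mismatch was allowed, so sites with wider gaps or imperfect repeats were not looked for. Promoters of CDKN1A and GDF15 are shown because GDF15 had the largest rise of the tested members with MYC siRNA in both human lines and CDKN1A was called in the most comparisons, and that of BAX because it holds 4 E-boxes and its gene moved in opposite directions in those lines. Each is printed from position -250 to -1 in lower case, with GC boxes in capitals for the first pair and E-boxes in capitals for BAX. The CDKN1A stretch is chr6:36678464-36678713, that of GDF15 chr19:18385908-18386157 and that of BAX chr19:48954625-48954874, all on the plus strand.
CDKN1A: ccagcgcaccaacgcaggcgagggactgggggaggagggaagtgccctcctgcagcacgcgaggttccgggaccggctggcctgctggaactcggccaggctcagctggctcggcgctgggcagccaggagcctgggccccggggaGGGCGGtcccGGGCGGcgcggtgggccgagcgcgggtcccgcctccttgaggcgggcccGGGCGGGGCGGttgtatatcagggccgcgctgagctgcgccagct
GDF15: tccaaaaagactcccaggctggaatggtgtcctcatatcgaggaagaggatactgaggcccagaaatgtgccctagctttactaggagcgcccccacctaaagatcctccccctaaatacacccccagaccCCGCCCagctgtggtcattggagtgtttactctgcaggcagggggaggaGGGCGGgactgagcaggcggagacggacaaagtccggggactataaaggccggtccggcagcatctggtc
BAX: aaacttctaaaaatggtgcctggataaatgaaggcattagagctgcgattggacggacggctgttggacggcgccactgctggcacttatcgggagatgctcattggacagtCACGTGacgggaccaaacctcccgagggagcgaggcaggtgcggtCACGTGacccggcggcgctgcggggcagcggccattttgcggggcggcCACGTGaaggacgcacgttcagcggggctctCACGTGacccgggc
GC boxes began at -104, -94, -45 and -40 in CDKN1A and at -119 and -70 in GDF15, and E-boxes at -138, -93, -45 and -14 in BAX. An E-box was found for 4 of 24 members (AEN, BAX, BBC3 and EDA2R), against 7.26% of all 35116 windows. A GC box was found for 22 of 24, against 45%, and a TATA box for GDF15 alone, against 11.5%. A member was counted if any of its windows matched, while the percentages are over single windows, so the 2 are not like for like. These matches describe the letters and show no binding, and CDKN1A and GDF15 held no E-box in their windows.

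The p53 element was also looked for, since it is what the members are chosen for. A full site was found for DDB2 alone among the members, and in 0.0199% of all windows (7 of 35116). At least 1 repeat was found for 6 members (AEN, DDB2, FAS, FDXR, PLK2 and SESN1), and in 6.63% of all windows. As above, members were counted over any of their windows, so these shares are not like for like. The stretches are chr11:47214975-47215003 for DDB2 (plus strand), chr10:88991305-88991322 for FAS (plus), chr6:109009024-109009041 for SESN1 (minus), chr15:88621302-88621319 for AEN (plus), chr5:58460205-58460222 for PLK2 (minus) and chr17:74872992-74873009 for FDXR (minus). Capitals mark the element.
DDB2: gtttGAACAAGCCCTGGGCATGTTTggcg
FAS: tcctGGACAAGCCCtgac
SESN1: gtctGGACAAGTCTccac
AEN: agccGGGCTTGCCCgggc
PLK2: gacaAGACTTGCTTcccg
FDXR: gagcGGGCTTGCCCtgcg
The absence of a match says nothing about imperfect elements within the windows searched. Nor does it speak to elements farther away, which for CDKN1A are known to lie outside them.

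MYC siRNA asks what the members do when MYC, a driver of growth and a repressor of some of them, is targeted. MYC RNA itself moved to very different degrees. In SUM159PT Tax-R cells it was 2727 and 2663 with control siRNA, 1538 and 1428 with siRNA-1 and 1504 and 1426 with siRNA-2 (log2 change -0.87 ± 0.04, adjusted p = 3.97e-23). In MDA-MB-436 Tax-R cells it was 2058 and 2019 with control siRNA, 1897 and 1930.1 with siRNA-1 and 1924 and 1906 with siRNA-2, a fall of only 0.09 on the log2 scale (adjusted p = 0.0144, and 0.124 without control library 1). 4T1 libraries gave 2390.0, 2595 and 2433 for control, 2220.3, 2407 and 2232 for siRNA-1 and 2339, 2366 and 2344 for siRNA-2, which did not pass the test (log2 change -0.09 ± 0.04, adjusted p = 0.0683). The RNA level thus gives little check of the label in MDA-MB-436 and none in 4T1, and the libraries of these lines are called by their labels.

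In both human lines the libraries labelled MYC siRNA held several times more CDKN1A and GDF15 and far less PMAIP1. Of the 17 members called in both lines, 15 moved the same way, 9 up and 6 down. How often all genes called in both lines agreed was not counted, so this agreement cannot be called particular to the members. In MDA-MB-436 Tax-R cells 27 members were tested, 11 were higher and 9 lower, beside a background of 34% of all genes higher and 33.7% lower (67.7% in either direction). In SUM159PT Tax-R cells 28 were tested, 15 higher and 8 lower, beside 35% and 34.5% (69.5% in either direction). The median log2 change over the tested members was 0.07 and 0.22, and -0.01 over all genes tested in each line.

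Of the 6 arrest genes 3 were higher and 2 lower in MDA-MB-436, and 5 higher and 1 lower in SUM159PT. CDKN1A in MDA-MB-436 Tax-R was 389.9 and 359 with control siRNA, 1893 and 1825 with siRNA-1 and 1822 and 1737 with siRNA-2, 4.86-fold higher (log2 change 2.28 ± 0.04, adjusted p = 3.39e-26). In SUM159PT Tax-R it was 714 and 715 with control siRNA, 2257 and 2259 with siRNA-1 and 2168 and 2226 with siRNA-2, 3.12-fold higher (log2 change 1.64 ± 0.04, adjusted p = 5.24e-34). All 8 siRNA libraries of the 2 lines lay far above their controls, and the siRNAs gave like levels. PLK3, a stress-responsive polo-like kinase, rose as well, from 84.6 and 55.9 with control siRNA to 211 and 186 with siRNA-1 and 211 and 221 with siRNA-2 in SUM159PT (1.57 ± 0.12) and by 0.90 in MDA-MB-436. Its relative PLK2 fell in both, from 1716 and 1779 with control siRNA to 771 and 761 with siRNA-1 and 849 and 916 with siRNA-2 in MDA-MB-436 (log2 change -1.09 ± 0.04, adjusted p = 7.66e-19) and by 1.16 on the log2 scale in SUM159PT. BTG2, an antiproliferative adaptor of mRNA decay, rose by 0.87 and 0.48. ZMAT3, an RNA-binding protein, rose only in SUM159PT by the test (0.97, against 0.07, adjusted p = 0.597 in MDA-MB-436), and whether the lines differ was not tested. GADD45A, a growth arrest and damage response gene, was lower in MDA-MB-436 (-0.44) and higher in SUM159PT (0.14), the second call being lost without control library 2 (adjusted p = 0.0816) and with siRNA-1 alone (0.07).

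Among the genes that feed back on p53, PPM1D, the phosphatase that switches off damage signalling, fell in both lines. Its levels were 122 and 93.1 with control siRNA, 41.8 and 48.3 with siRNA-1 and 46.1 and 60.1 with siRNA-2 in SUM159PT (log2 change -1.12 ± 0.16, adjusted p = 4.7e-08), with a fall of 0.84 on the log2 scale in MDA-MB-436. MDM2 rose in SUM159PT, from 313 and 354 with control siRNA to 437 and 475 with siRNA-1 and 449.9 and 436 with siRNA-2 (log2 change 0.43 ± 0.07, adjusted p = 4.54e-07). In MDA-MB-436 its libraries overlapped, at 505 and 526 with control siRNA, 562 and 529 with siRNA-1 and 571 and 505 with siRNA-2 (0.07, adjusted p = 0.298). CCNG1, cyclin G1, was lower in SUM159PT (-0.18), a call lost without control library 2 (adjusted p = 0.0979).

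Mitochondrial apoptosis genes split, with 1 of 5 tested higher and 3 lower in MDA-MB-436 and 4 of 6 higher and 1 lower in SUM159PT. PMAIP1 fell far in both lines, from 61.8 and 71.8 with control siRNA to 13.7 and 19 with siRNA-1 and 18 and 15.9 with siRNA-2 in MDA-MB-436 (log2 change -1.95 ± 0.23, adjusted p = 1.81e-08) and from 37.5 and 39.3 with control siRNA to 9.4 and 10.9 with siRNA-1 and 4.1 and 9.85 with siRNA-2 in SUM159PT (log2 change -2.11 ± 0.33, adjusted p = 1.75e-07). BBC3, which encodes PUMA, another pro-apoptotic protein of the same class, rose instead: by 0.56 ± 0.11 in SUM159PT, and in MDA-MB-436 from 40.5 and 32 with control siRNA to 49.8 and 47.5 with siRNA-1 and 67.3 and 41.3 with siRNA-2. That last change (0.48 ± 0.19, adjusted p = 0.0301) lost its call without control library 2 (0.245), siRNA-1 library 1 (0.0684) or 2 (0.0506), or siRNA-2 library 1 (0.179), without the filter on low values (0.131), with quantile normalization (0.128) and with siRNA-1 alone (0.1). BAX, the pore-forming effector, fell in MDA-MB-436 from 844 and 859 with control siRNA to 599.6 and 559 with siRNA-1 and 582 and 559.7 with siRNA-2 and rose by 0.19 in SUM159PT. PHLDA3, an inhibitor of AKT, rose in SUM159PT from 243 and 210.1 with control siRNA to 411 and 367 with siRNA-1 and 414 and 467 with siRNA-2 (0.87 ± 0.08), as did TP53INP1 (1.02), a promoter of stress responses. TP53INP1 was too low to test in MDA-MB-436, with 3 reads over the control libraries and 49 over the 4 siRNA libraries, a ratio of normalized means of 7.89 with a 95% counting interval of 2.54 to 39.6. AEN, a nuclease of apoptosis, fell in MDA-MB-436 (-0.42).

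Death receptors and repair genes moved in both directions too. TNFRSF10B, a receptor of the ligand TRAIL, rose by 0.26 in MDA-MB-436 and 0.25 in SUM159PT, while its sister TNFRSF10A fell by 0.63 and 0.35 on the log2 scale. FAS fell in SUM159PT only by the test (-0.62, against 0.06, adjusted p = 0.625 in MDA-MB-436). For DNA repair, POLH, the polymerase that copies past ultraviolet lesions, dropped from 328 and 314 with control siRNA to 150.4 and 158 with siRNA-1 and 158 and 145 with siRNA-2 in MDA-MB-436 (log2 change -1.07 ± 0.09, adjusted p = 8.37e-12) and from 318 and 323 with control siRNA to 134 and 101 with siRNA-1 and 133 and 115 with siRNA-2 in SUM159PT (log2 change -1.41 ± 0.11, adjusted p = 1.7e-16). RRM2B, the p53-induced subunit of ribonucleotide reductase, rose by 0.74 and 0.66. DDB2, a damage sensor of nucleotide excision repair, rose in MDA-MB-436 (0.69), and XPC, which works with it, was lower in both (-0.19 and -0.25). The MDA-MB-436 call of XPC was lost without any 1 of the 4 libraries named for BBC3 (adjusted p from 0.0512 to 0.346), without the filter on low values (0.0538) and with siRNA-1 alone (0.0867).

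TP53I3, a quinone oxidoreductase, was the strongest of the metabolic genes, at 76.7 and 72.8 with control siRNA, 202 and 178 with siRNA-1 and 197 and 199.96 with siRNA-2 in MDA-MB-436 (log2 change 1.37 ± 0.10, adjusted p = 1.21e-12), and at 52.9 and 43.5 with control siRNA, 157 and 153 with siRNA-1 and 158 and 179 with siRNA-2 in SUM159PT (log2 change 1.73 ± 0.12, adjusted p = 2.85e-17). SESN1, a sestrin that restrains growth signalling through mTOR, rose by 0.47 and 0.37, the first lost with siRNA-1 alone (adjusted p = 0.0506) and the second without control library 1 (0.0552). GDF15, a secreted stress cytokine of the TGF-beta family, had the largest rise of the tested members. It went from 318 and 307 with control siRNA to 1614 and 1672 with siRNA-1 and 1809.5 and 1596 with siRNA-2 in MDA-MB-436, 5.35-fold (log2 change 2.41 ± 0.05, adjusted p = 8.04e-26). In SUM159PT it went from 88.5 and 92.1 with control siRNA to 753 and 701 with siRNA-1 and 711 and 739.9 with siRNA-2, 8.05-fold (log2 change 2.99 ± 0.07, adjusted p = 4.06e-36).

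**Figure D2:**
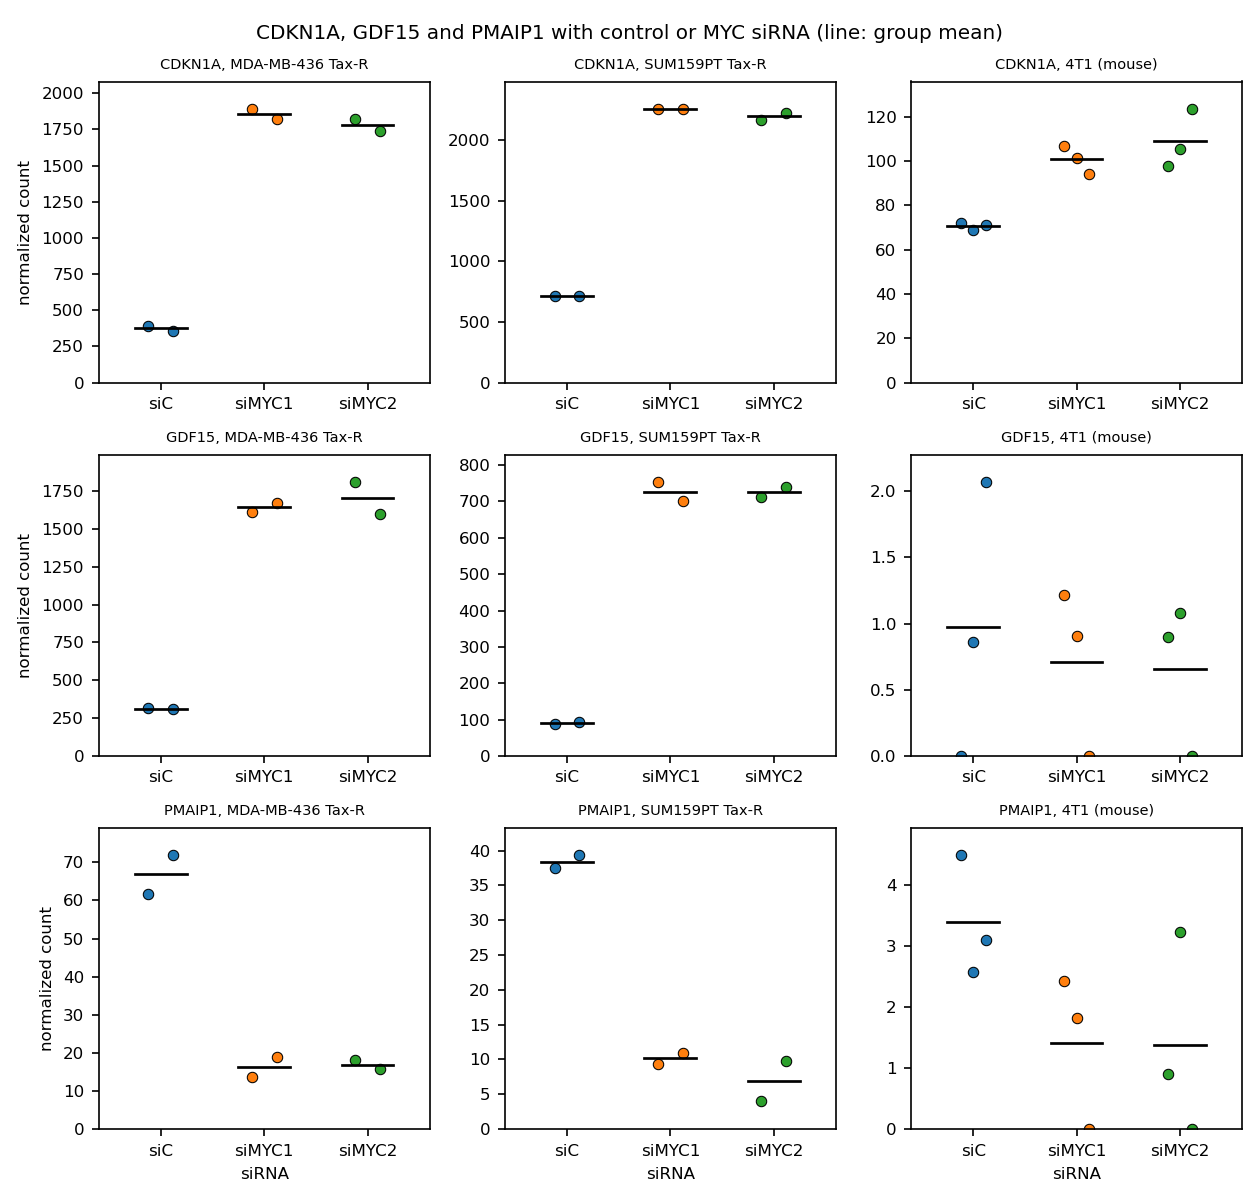
Normalized counts of CDKN1A, GDF15 and PMAIP1 (rows) with control siRNA (siC) or either MYC siRNA, with a column (a separate table) each for MDA-MB-436 Tax-R, SUM159PT Tax-R and mouse 4T1 cells. Each point is 1 library, lines are group means and the vertical axes start at 0 with a scale of their own. In the human lines each siRNA library is above the controls for CDKN1A and GDF15 and below them for PMAIP1, and in 4T1 the last pair lies near 0.

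In 4T1 cells labelled MYC siRNA Cdkn1a rose and Sesn2, Fas and Bbc3 fell. Of 24 members tested 5 were higher and 8 lower, beside a background of 24.7% of all genes higher and 21.5% lower (46.2% in either direction), with a median of -0.08 against 0.00 over all genes. Cdkn1a was 71.8, 68.8 and 71.3 with control, 107, 101 and 94.3 with siRNA-1 and 97.7, 106 and 123 with siRNA-2, 1.48-fold higher (log2 change 0.56 ± 0.11, adjusted p = 0.000162), and the groups did not overlap. Plk3 (0.31), Phlda3 (0.31), Tnfrsf10b (0.35) and Polh (0.17) were also higher, the last losing its call without control library 2 (adjusted p = 0.117) and with siRNA-2 alone (0.0702). The largest fall was that of Sesn2, from 186, 246 and 222 with control siRNA to 113, 73.9 and 122 with siRNA-1 and 102, 109 and 95.6 with siRNA-2 (log2 change -1.09 ± 0.12, adjusted p = 7.1e-08). Bbc3 fell from 94.3, 136 and 93 with control siRNA to 69.3, 53.8 and 79.9 with siRNA-1 and 78, 59.2 and 67.7 with siRNA-2 (log2 change -0.65 ± 0.14, adjusted p = 0.000584), and Fas from 249, 236 and 236 with control siRNA to 137, 149 and 146 with siRNA-1 and 170.4, 138 and 149 with siRNA-2 (log2 change -0.69 ± 0.08, adjusted p = 1.85e-07). Gadd45a, Zmat3, Ppm1d, Xpc and Fdxr fell by 0.31 to 0.51 on the log2 scale. Gdf15 and Pmaip1 were too low to test, at 0 to 2.07 and 0 to 4.49 in all 9 libraries.

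Between siRNA-2 and siRNA-1 limma called 0 of 27, 0 of 28 and 0 of 24 members in MDA-MB-436, SUM159PT and 4T1, beside 0.195% (0.0779% higher and 0.117% lower), 0% and 0% of all genes. At an unadjusted p below 0.05 there were 2, 0 and 1 members, and edgeR called 0 in each line. The summed level of the mesenchymal markers VIM, FN1, SPARC and ZEB1 (4 of 4 listed) moved with this comparison. It was 22453 to 22752 in the MDA-MB-436 controls and 30205 to 32207 with MYC siRNA. In SUM159PT it was 27506 to 27658 and 42634 to 43699, and in 4T1 18254 to 18769 and 36634 to 40957. Markers of other cells (5 of 6 listed in each line) summed to 22.4 to 25.2 and 32.3 to 58.2 in MDA-MB-436, 58.7 to 70.4 and 143 to 175 in SUM159PT, and 244 to 278 and 218 to 294 in 4T1. Epithelial markers summed to 3972 to 3996 and 4741 to 4877 in MDA-MB-436 (4 of 5 listed), 4574 to 4584 and 5698 to 5978 in SUM159PT (3 of 5), and 17670.1 to 18885 and 22304 to 23656 in 4T1 (5 of 5). The sums of all 3 lists stood apart between control and siRNA libraries in the human lines. The part of any of these lists in the members' changes was not tested.

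Tax-R cells differ from parental cells in a labelled state that the sources used here do not define, so the comparison describes 2 cell states. CDKN1A and its fellow arrest genes were mostly lower in MDA-MB-436 Tax-R and mostly higher in SUM159PT Tax-R. Among the 29 members tested in MDA-MB-436, 6 were at a higher level in Tax-R and 12 at a lower one, beside 27.7% and 26.9% of all genes (54.6% in either direction). In SUM159PT, 28 were tested, 10 higher and 8 lower, beside 23.5% and 22.1% (45.7% in either direction). Medians were -0.09 and 0.04, against 0.01 over all genes in each. Of 11 members called in both lines, 7 moved the same way: BTG2, PMAIP1, TNFRSF10B and SESN2 were lower and BAX, AEN and PHLDA3 higher. CDKN1A, PLK2, PLK3 and TP53I3 moved in opposite ways, and the difference between the lines was not itself tested. Agreement over all genes called in both lines was not counted here either.

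CDKN1A was 744 and 749 in parental and 370.3 and 428 in Tax-R MDA-MB-436 cells (log2 change -0.91 ± 0.06, adjusted p = 4.66e-07), and 314 and 275 against 489 and 489 in SUM159PT (log2 change 0.73 ± 0.07, adjusted p = 3.43e-05). It fell in the first line and rose in the second, with no overlap in either. Of the other arrest genes of SUM159PT, GADD45A (0.53), PLK2 (0.60), PLK3 (0.57) and ZMAT3 (0.26) were higher too. BTG2 was the 1 arrest gene that was lower there, at 294 and 253 against 204 and 206, and it was lower in MDA-MB-436 as well, at 416 and 417 against 188 and 202 (log2 change -1.09 ± 0.07, adjusted p = 1.34e-07). In MDA-MB-436 PLK2 (-0.29) and PLK3 (-0.38) were lower, and GADD45A and ZMAT3 were each at -0.04 (adjusted p = 0.544 and 0.389). None of the feedback genes MDM2, PPM1D and CCNG1 was called in SUM159PT (adjusted p = 0.491, 0.202 and 0.145). CCNG1 was higher in MDA-MB-436 (0.23), where MDM2 stood at 1269 and 1321 in parental and 1205 and 1223 in Tax-R cells (-0.09, adjusted p = 0.0571), a difference called lower by edgeR (0.0305), after quantile normalization (0.0104) and without parental library 1 (0.0349).

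Both BH3-only apoptosis genes were lower in MDA-MB-436 Tax-R. PMAIP1 was 471 and 496 in parental and 228 and 221 in Tax-R cells (log2 change -1.10 ± 0.06, adjusted p = 6.57e-08), and BBC3 217 and 211 against 63.1 and 99.5 (log2 change -1.42 ± 0.17, adjusted p = 3.17e-05). SPATA18, a gene of mitochondrial quality control, was at 34.1 and 31.8 in parental and 0 and 1.03 in Tax-R cells, which is 73 reads against 1, a ratio of 65.2 with a 95% counting interval of 11.3 to 2610. In SUM159PT PMAIP1 was lower too, at 266 and 288 against 171 and 183 (log2 change -0.64 ± 0.09, adjusted p = 0.000228), BBC3 overlapped (-0.34, adjusted p = 0.233), and TP53INP1 fell most of all members, from 61 and 73.8 to 7.16 and 14.8 (log2 change -2.58 ± 0.32, adjusted p = 0.000146). AEN was higher there, at 686 and 673 against 1027 and 1016 (log2 change 0.59 ± 0.04, adjusted p = 3.98e-06), as was PHLDA3, at 224 and 232 against 363 and 357. The same pair was higher in MDA-MB-436 by 0.15 and 0.19, small changes that lost their calls without some libraries: AEN without Tax-R library 1 (adjusted p = 0.0576, which with PHLDA3 and POLH brings the members called higher from 6 to 3), and PHLDA3 without parental library 1 (0.0803), parental library 2 (0.0583) or Tax-R library 1 (0.113).

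Among receptors and repair genes, TNFRSF10B was lower in Tax-R cells of both lines, at 1948 and 2036 against 1489 and 1473 in MDA-MB-436 (log2 change -0.43 ± 0.04, adjusted p = 2.27e-06) and by 0.26 on the log2 scale in SUM159PT. FAS (-0.23) and RRM2B (-0.26) were lower in MDA-MB-436, and in SUM159PT TNFRSF10A was higher (0.22) and DDB2 lower (-0.38). POLH was higher in MDA-MB-436 (0.13, adjusted p = 0.023), a call lost without any 1 of the 4 libraries (0.0513 to 0.162), without the filter on low values (0.0504) and with quantile normalization (0.0755). SESN2 was lower in both lines, at 338 and 354 against 175 and 211 in MDA-MB-436 (log2 change -0.84 ± 0.09, adjusted p = 1.17e-05) and 263 and 461 against 129 and 131 in SUM159PT (log2 change -1.42 ± 0.20, adjusted p = 0.000385), where the parental libraries themselves lay far apart. TP53I3 was 150.01 and 163 against 247 and 236 in MDA-MB-436 (log2 change 0.62 ± 0.08, adjusted p = 6.4e-05), and 256 and 227 against 188 and 188 in SUM159PT (log2 change -0.36 ± 0.09, adjusted p = 0.00939), where it lost its call without parental library 1 (0.0808). GDF15 was lower in MDA-MB-436, at 439.8 and 449.9 against 207 and 234 (log2 change -1.01 ± 0.07, adjusted p = 4.2e-07). In SUM159PT its parental libraries of 47.8 and 119 enclosed the Tax-R libraries of 83.9 and 83.2.

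When both Tax-R libraries of MDA-MB-436 were taken as 1 sample, PHLDA3 and POLH lost their calls (adjusted p = 0.0575 and 0.103) and the other called members kept theirs. FDXR (0.46), a mitochondrial ferredoxin reductase, and BAX (0.23) were higher in SUM159PT Tax-R, and SESN1 lower (-0.20), a call lost without parental library 2 (0.0761) or either Tax-R library (0.0718 and 0.0701). MYC RNA was not called in either line (-0.07, adjusted p = 0.174, and 0.11, adjusted p = 0.149). STING1 was lower in Tax-R cells of both (-1.03 and -1.71). The summed markers of other cells moved with the comparison. Their summed level (6 of 6 listed in MDA-MB-436, 5 of 6 in SUM159PT) was 2254 to 2351 in parental against 397 to 555 in Tax-R MDA-MB-436 cells, and 753 to 783 against 100.2 to 102 in SUM159PT. Most of it was PTPRC, at 1982 and 2113 against 242 and 376 and at 518 and 548 against 6.14 and 3.96, while the T cell marker CD3E was at 2.56 or 0 in MDA-MB-436 and not listed in SUM159PT. Epithelial markers summed to 2820 to 2866 in parental and 1951 to 2066 in Tax-R MDA-MB-436 cells (5 of 5 listed), and 2943 to 2983 and 1992 to 2037 in SUM159PT (4 of 5). Mesenchymal markers (4 of 4) were 8442 to 8584 and 8892 to 9226 in MDA-MB-436, and 10122 to 10325 and 10305 to 10520 in SUM159PT. The part of these lists in the members' changes was not tested.

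**Figure D3:**
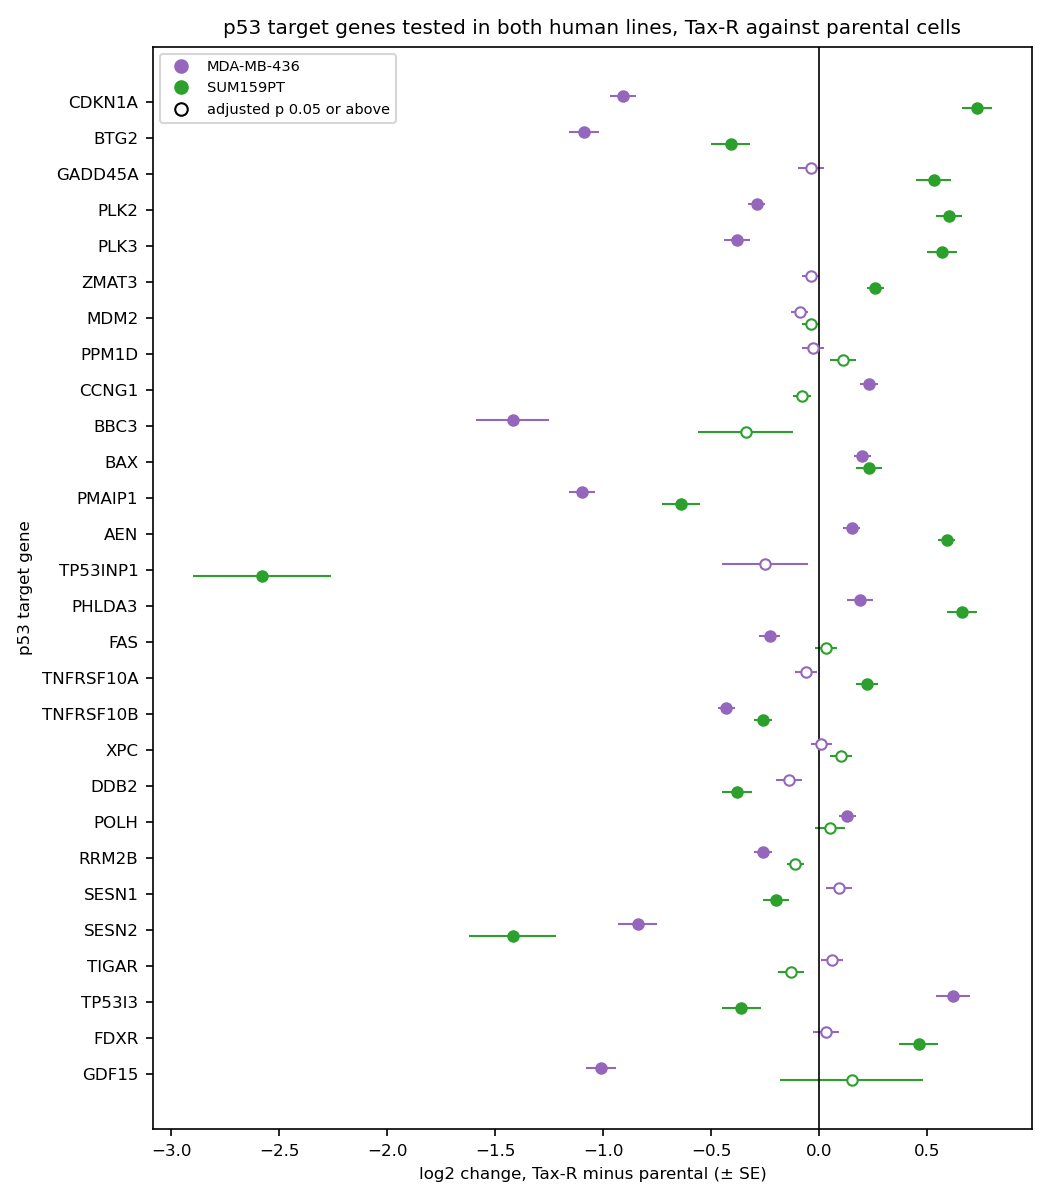
Log2 change, Tax-R minus parental, with its SE for the 28 p53 target genes tested in both human lines. Purple is MDA-MB-436, green SUM159PT, filled points have adjusted p below 0.05 and open points do not. CDKN1A, PLK2, PLK3 and TP53I3 have filled points on both sides of 0.

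STING sgRNA against mock cells shows the members when STING, the adaptor that relays the detection of cytosolic DNA, is targeted. STING1 RNA was 182 and 158 in mock, 55.1 and 41.7 in C1 and 44 and 46 in C2 cells of MDA-MB-436 (log2 change -1.85 ± 0.15, adjusted p = 3.69e-11), and 261 and 229 in mock, 94.9 and 114 in C1 and 101 and 92.7 in C2 in SUM159PT (log2 change -1.28 ± 0.11, adjusted p = 1.29e-12). In MDA-MB-436 all 5 tested genes of mitochondrial apoptosis were lower with the sgRNA, while CDKN1A did not change by the test. In SUM159PT CDKN1A and BTG2 were higher. Of 27 members tested in MDA-MB-436 5 were higher and 8 lower, beside 24.8% and 23% of all genes (47.8% in either direction), and of 26 in SUM159PT 5 were higher and 5 lower, beside 19.3% and 19.8% (39.1% in either direction). Medians were 0.00 and -0.02, against 0.01 and 0.00 over all genes.

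PMAIP1 fell most of the tested members in MDA-MB-436. It was 361 and 385 in mock, 116 and 116 in C1 and 129 and 129 in C2 cells of MDA-MB-436, 3.04-fold lower (log2 change -1.60 ± 0.09, adjusted p = 1.55e-14), with wide gaps to the mock libraries. In SUM159PT it was 57.2 and 55.7 in mock, 38.9 and 44 in C1 and 39.1 and 29.9 in C2 (log2 change -0.57 ± 0.19, adjusted p = 0.0139), a smaller fall whose call was lost without mock library 1 (adjusted p = 0.101) or 2 (0.0645) or C2 library 2 (0.0524), without the filter on low values (0.0687) and with C1 alone (0.152). BBC3 in MDA-MB-436 went from 52.7 and 46.1 to 30.1 and 31.3 in C1 and 23 and 15.3 in C2 (log2 change -1.01 ± 0.22, adjusted p = 0.000428). BAX was lower in both lines (-0.30 and -0.24), the second not with C1 alone (0.246). AEN (-0.24) and PHLDA3 (-0.28) were lower in MDA-MB-436, PHLDA3 losing its call without mock library 1 (0.108) or 2 (0.0623), or C2 library 2 (0.0668).

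CDKN1A stood at 568 and 607 in mock, 614 and 589 in C1 and 609 and 591 in C2 cells of MDA-MB-436. The groups overlapped in part (0.03, adjusted p = 0.661). In SUM159PT it rose from 227 and 207 in mock to 339.7 and 335 in C1 and 292 and 324 in C2, 1.49-fold (log2 change 0.57 ± 0.08, adjusted p = 1.18e-07). BTG2 rose with it, from 78.2 and 80.6 in mock to 144 and 160.4 in C1 and 134 and 132 in C2 (log2 change 0.83 ± 0.12, adjusted p = 1.51e-07), but was lower in MDA-MB-436 (-0.50). GADD45A was lower in both (-0.30 and -0.21), though in SUM159PT its C1 libraries (537 and 501) overlapped mock (565 and 523) and the call was lost with C1 alone (adjusted p = 0.56). PLK2 was lower in SUM159PT (-0.64). MDM2 was higher in MDA-MB-436, at 688 and 659 in mock, 802 and 757 in C1 and 823 and 824 in C2 (log2 change 0.25 ± 0.05, adjusted p = 0.000228). TIGAR, which lowers glycolytic flux, had its 1 call here, rising from 117 and 134 in mock to 150.3 and 167 in C1 and 175 and 172 in C2 (log2 change 0.40 ± 0.10, adjusted p = 0.00209).

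ZMAT3 (0.25), FAS (0.28) and TNFRSF10A (0.26) were higher and FDXR lower (-0.53) in MDA-MB-436. In SUM159PT CCNG1 (0.17), RRM2B (0.29) and TP53I3 (0.47) were higher and TNFRSF10B lower (-0.18). Without MDA-MB-436 mock library 1 the calls of BTG2, ZMAT3, PHLDA3, FAS, TNFRSF10A and TIGAR were lost (adjusted p from 0.0608 to 0.412), which with a call gained by CCNG1 (0.0483) leaves 2 members higher. Without SUM159PT mock library 1 those of GADD45A (0.143) and PMAIP1 were lost, leaving 3 lower, and without mock library 2 those of CCNG1 (0.121), PMAIP1 and RRM2B (0.0777), leaving 3 higher. Dropping the filter on low values brings more genes into both the variance fit and the adjustment. The calls of ZMAT3 (0.104), PHLDA3 (0.0909) and FAS (0.079) were then lost in MDA-MB-436. In SUM159PT those of GADD45A (0.0657), CCNG1 (0.161), PMAIP1, TNFRSF10B (0.0516) and TP53I3 (0.0745) were lost. With C1 alone the calls of BTG2 (0.169), GADD45A (0.0968), ZMAT3, PHLDA3 and FAS were lost in MDA-MB-436, and those of CCNG1 (0.256), TNFRSF10B (0.1) and RRM2B (0.288) in SUM159PT.

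The sgRNA groups differed from each other in SUM159PT by the test with its filter, while without the filter on low values 0 genes were called between them. Between C2 and C1 limma called 8 of 26 members, beside 19.9% of all genes. MDM2, RRM2B and SESN1 were higher in C2 (8.53% of all genes were) and GADD45A, BAX, PHLDA3, TP53I3 and FDXR lower (11.4%). Without C1 library 1 this count was 0, without C1 library 2 it was 4 and without C2 library 2 it was 2. In MDA-MB-436 limma called 0 of 27 members between C2 and C1, beside 0.797% of all genes (0.131% higher and 0.666% lower), with 5 members at an unadjusted p below 0.05 and 0 called by edgeR. In SUM159PT the summed markers of other cells (5 of 6 listed) were 133 to 151 in mock, 19.9 to 25.6 in C1 and 22.6 to 23.7 in C2, most of it PTPRC (92.5 and 115 in mock, 2.85 and 3.14 in C1 and 4.11 and 0 in C2), with CDH5 at 0 to 2.06. In MDA-MB-436 (4 of 6 listed) they were 1099 to 1108 in mock and 1313 to 1417 with the sgRNA. Mesenchymal markers (4 of 4) were 23413 to 23700 in mock and 28164 to 30122 with the sgRNA in MDA-MB-436, and 21763 to 22067 and 28464 to 29496 in SUM159PT. Epithelial markers were 6434 to 6459 in mock and 5533 to 5849 with the sgRNA in MDA-MB-436 (4 of 5), and 9548 to 9980.0 and 10243 to 11517 in SUM159PT (3 of 5). The part of any of these lists in the members' changes was not tested.

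STING ORF against GFP ORF is the converse, with STING added to cells that carry the sgRNA. STING1 RNA was 32.1 and 21 with GFP and 614 and 579 with STING ORF in MDA-MB-436, and 65.4 and 81.1 against 1599 and 1455 in SUM159PT. CDKN1A fell in both lines and was the largest change among the members of SUM159PT. It was 206 and 209 with GFP and 81.6 and 97.2 with STING ORF in MDA-MB-436, 2.32-fold lower (log2 change -1.21 ± 0.14, adjusted p = 1.3e-07), and 302 and 291 against 82.8 and 80 in SUM159PT, 3.64-fold lower (log2 change -1.85 ± 0.13, adjusted p = 3.4e-11). Of 27 members tested in each line, 5 were higher and 4 lower in MDA-MB-436, beside 9.2% and 11.9% of all genes (21.1% in either direction), and 5 higher and 5 lower in SUM159PT, beside 13.2% and 12.8% (26% in either direction). Medians were 0.07 and 0.18, against -0.01 and 0.01 over all genes.

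PMAIP1 rose in MDA-MB-436, from 90.9 and 93.5 with GFP to 233 and 277 with STING ORF, 2.77-fold (log2 change 1.45 ± 0.14, adjusted p = 1.02e-09). This is the 1 comparison in which PMAIP1 was called higher, and the sgRNA comparison of the same line was the reverse of it in sign. In SUM159PT its libraries overlapped, at 34.9 and 52.8 with GFP against 44.9 and 55.5 with STING ORF (0.21, adjusted p = 0.524). GDF15 rose in MDA-MB-436, from 316 and 312 to 477 and 451 (log2 change 0.56 ± 0.10, adjusted p = 7.97e-05), and was low and overlapping in SUM159PT, at 8.72 and 5.66 against 22 and 8.53 (0.88, adjusted p = 0.155). MDM2 (0.38) and CCNG1 (0.39) were higher in MDA-MB-436, and RRM2B (0.33) too, while AEN (-0.39), PHLDA3 (-0.55) and FDXR (-0.77) were lower.

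In SUM159PT PLK2 rose from 113 and 113 to 189.7 and 228 (log2 change 0.87 ± 0.14, adjusted p = 3.41e-05) and DDB2 fell from 72.4 and 65.1 to 37.9 and 34.1 (log2 change -0.91 ± 0.20, adjusted p = 0.00149). ZMAT3 (0.42), BAX (0.34), FAS (0.41) and TNFRSF10A (0.36) were higher, and PHLDA3 (-0.41), SESN1 (-0.59) and TP53I3 (-0.59) lower. Most of these smaller calls did not hold with each single library left out, which leaves 1 library in a group. The calls over all genes moved too, and the cause was not tested. Without SUM159PT GFP library 1 only PLK2 stayed higher and only CDKN1A lower, without GFP library 2 there were 2 higher, and without STING library 1 or 2 there were 8 higher, with 3 lower in the second case. In MDA-MB-436 the calls of AEN (adjusted p = 0.143), PHLDA3 (0.234) and RRM2B (0.099) were lost without GFP library 1, that of RRM2B (0.0584) without GFP library 2, and those of CCNG1 (0.178), AEN (0.07), PHLDA3 (0.0584) and RRM2B (0.394) without STING library 2. Without the filter on low values CDKN1A, PMAIP1 and GDF15 kept their calls in MDA-MB-436 and CDKN1A and PLK2 in SUM159PT, and the others did not. MYC RNA was not called in either line (-0.14, adjusted p = 0.181, and -0.07, adjusted p = 0.457). Mesenchymal markers (4 of 4) were 19137 to 20343 with GFP and 17087 to 17694 with STING ORF in MDA-MB-436, and 24948 to 24983 and 20146 to 20429.7 in SUM159PT. Epithelial markers were 6127 to 6997 and 4620.3 to 4809 in MDA-MB-436 (5 of 5), and 11043 to 11302 and 9309 to 9840.0 in SUM159PT (3 of 5). Markers of other cells were 606 to 695 and 489.8 to 536 in MDA-MB-436 (5 of 6), and 26.4 to 27 and 17.1 to 32.9 in SUM159PT (4 of 6). The part of these lists in the members' changes was not tested.

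**Figure D4:**
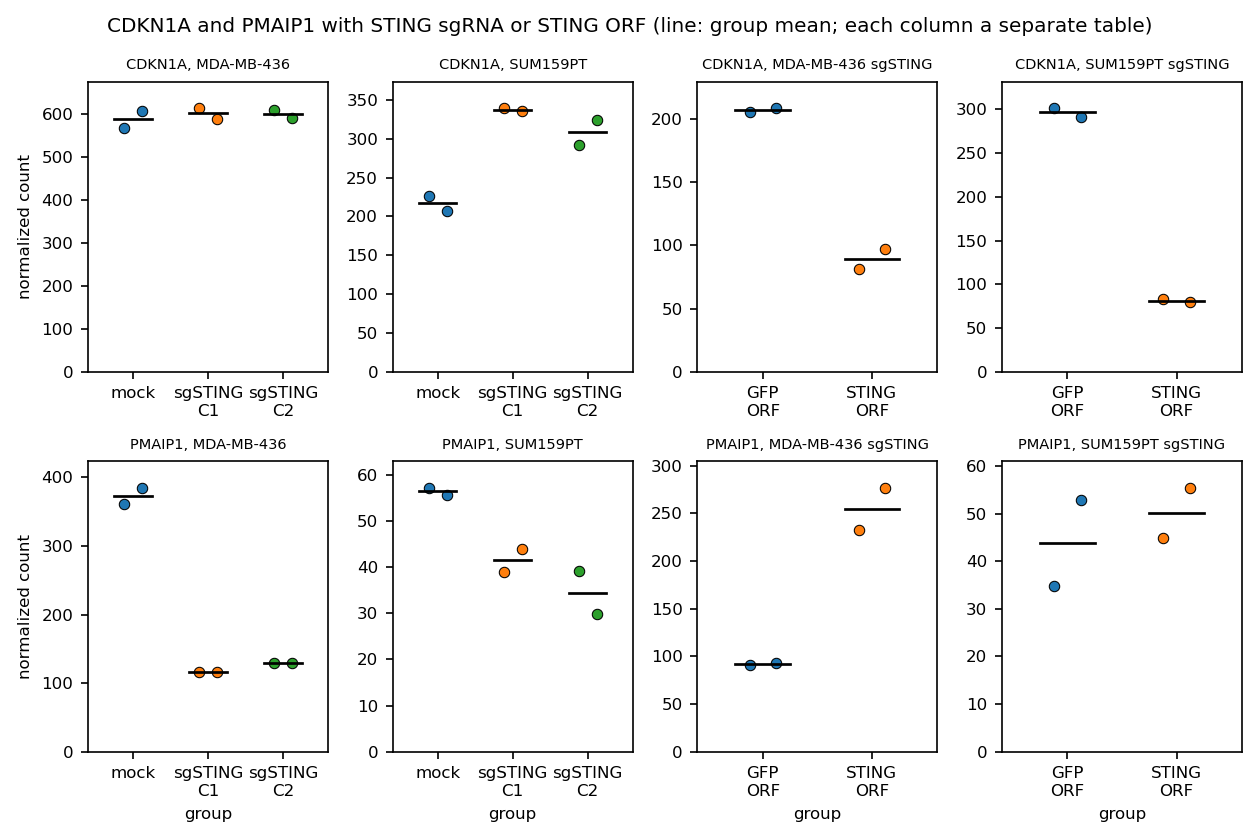
Normalized counts of CDKN1A (top) and PMAIP1 (bottom) in mock, STING sgRNA C1 and C2 cells and in STING sgRNA cells with a GFP or a STING ORF, for MDA-MB-436 and SUM159PT. Each point is 1 library, lines are group means, each column is a separate table and the vertical axes start at 0. STING ORF libraries lie below GFP libraries for CDKN1A in both lines, and PMAIP1 in MDA-MB-436 is low with sgRNA against mock and high with STING ORF against GFP.

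In Py230 cells doxycycline was given to induce the Sting1 shRNA. Sting1 RNA went from 841, 768 and 886 with vehicle to 48.3, 47.5 and 42.9 with doxycycline (log2 change -4.14 ± 0.09, adjusted p = 4e-22). Myc RNA fell as well, from 2769.9, 3281 and 3274 to 1020.1, 964 and 998 (log2 change -1.64 ± 0.05, adjusted p = 1.41e-18). No group of doxycycline without the shRNA was analysed here, so an effect of doxycycline itself and one of the shRNA cannot be told apart. The members divided: Cdkn1a, Mdm2, Sesn1 and Tnfrsf10b rose while Gadd45a, Sesn2, Rrm2b, Fas and Plk3 fell by more than 2-fold. Of 25 tested 10 were higher and 11 lower, beside 32.8% and 35.1% of all genes (67.8% in either direction), with a median of -0.18 against -0.01 over all genes.

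Mdm2 was 1139, 1089.8 and 1137 with vehicle and 2241, 2106 and 2233 with doxycycline, 1.96-fold higher (log2 change 0.97 ± 0.05, adjusted p = 1.59e-15), the largest rise of MDM2 in any comparison. Cdkn1a was 1499, 1427 and 1506 against 2458, 2336 and 2646, 1.68-fold higher (log2 change 0.75 ± 0.05, adjusted p = 7.4e-13). Neither gene overlapped between the groups. Gadd45a fell most, from 325, 531 and 499.9 to 72, 47.5 and 48.4, 8.08-fold (log2 change -2.99 ± 0.15, adjusted p = 9.43e-15). Plk3 fell from 269.7, 251 and 269 to 117, 102 and 97.7 (log2 change -1.31 ± 0.10, adjusted p = 1.67e-11), while Btg2 (-0.49) and Plk2 (-0.30) fell less. Ccng1 was higher (0.26) and Ppm1d lower (-0.44).

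Of the apoptosis genes Phlda3 (0.65) and Bax (0.24) were higher, Bbc3 (-0.39) and Tp53inp1 (-0.71) lower, and Aen was not called (0.11, adjusted p = 0.0522). Tnfrsf10b, the single TRAIL receptor listed for mouse, rose from 618, 595 and 622 to 1016, 1124 and 1137 (log2 change 0.83 ± 0.05, adjusted p = 1.26e-12), and Fas fell from 61.8, 66.3 and 54.4 to 25.6, 21 and 21 (log2 change -1.39 ± 0.19, adjusted p = 4.92e-07). Eda2r, a receptor of the ectodysplasin family, overlapped, at 71.4, 95.8 and 92.7 against 48.3, 96.2 and 76.7 (-0.27, adjusted p = 0.194). Among repair genes Polh (0.60), Ddb2 (0.44) and Xpc (0.16) were higher, the last losing its call without doxycycline library 1 (adjusted p = 0.0915) or 3 (0.0506) or vehicle library 2 (0.101), and Rrm2b fell from 141, 155 and 159 to 50.2, 54.2 and 49.3 (log2 change -1.55 ± 0.13, adjusted p = 8.17e-11). The sestrins went apart: Sesn1 rose from 33, 31.3 and 23.4 to 50.2, 68.5 and 52 (log2 change 0.94 ± 0.19, adjusted p = 0.000155) and Sesn2 fell from 992, 1139 and 1190.5 to 381, 349 and 368, 3.02-fold (log2 change -1.59 ± 0.06, adjusted p = 8.45e-17). Fdxr was lower (-0.63). Gdf15 was too low to test, with 2 reads over the vehicle and 35 over the doxycycline libraries, a ratio of 17.1 with a 95% counting interval of 4.4 to 147. Mdm4, which also restrains p53, was lower (-0.37). The summed mesenchymal markers (4 of 4) were 39678 to 41194 with vehicle and 55462 to 65200 with doxycycline, the epithelial ones (5 of 5) 10953 to 11760 and 10486 to 10741, and those of other cells (6 of 6) 489 to 497 and 459 to 535. Their part in the members' changes was not tested.

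SESN2 is induced by ATF4 as well as by p53, so it is set beside 12 genes of that response, ATF4 itself and 11 of its targets. In 4T1 with MYC siRNA and in Py230 with doxycycline SESN2 fell and all 12 of these genes fell, led by TRIB3 (-1.55), SLC7A11 (-1.53) and STC2 (-1.44) in 4T1 and by STC2 (-2.74), PSAT1 (-2.23) and CHAC1 (-2.20) in Py230. Of all genes 21.5% and 35.1% were lower there. In MDA-MB-436 Tax-R with MYC siRNA SESN2 rose, from 117 and 103 with control siRNA to 234 and 214 with siRNA-1 and 252 and 229.6 with siRNA-2 (log2 change 1.07 ± 0.09, adjusted p = 3.28e-11), and 9 of the 12 rose with 1 lower, led by CHAC1 (2.21), VLDLR (1.90) and DDIT4 (1.60), beside 34% of all genes higher and 33.7% lower. In SUM159PT Tax-R with MYC siRNA SESN2 was not called (0.11, adjusted p = 0.302), with 3 of 11 tested genes higher and 6 lower, among them PSAT1 (-1.99), ASNS (-1.57) and STC2 (1.24), beside 35% and 34.5% of all genes. SESN2 was lower in Tax-R cells of both lines, beside 4 higher and 5 lower of 12 in MDA-MB-436 and 1 higher and 6 lower of 12 in SUM159PT (all genes 27.7% and 26.9%, and 23.5% and 22.1%), where CHAC1 led each fall (-2.46 and -2.61). SESN2 was not called in the 4 STING comparisons of the human lines (adjusted p = 0.918, 0.917, 0.626 and 0.157). Of these 4, the ATF4 count is given only for STING ORF in SUM159PT. There 9 of 11 ATF4 genes were higher and 0 lower, beside 13.2% and 12.8% of all genes. That count does not stand for the other STING comparisons of the human lines. Their ATF4 genes appear only in the plot of log2 changes of SESN2 and the ATF4 genes. All counts given here for SESN2 and the ATF4 genes are set beside each other, with no test of a link.

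**Figure D5:**
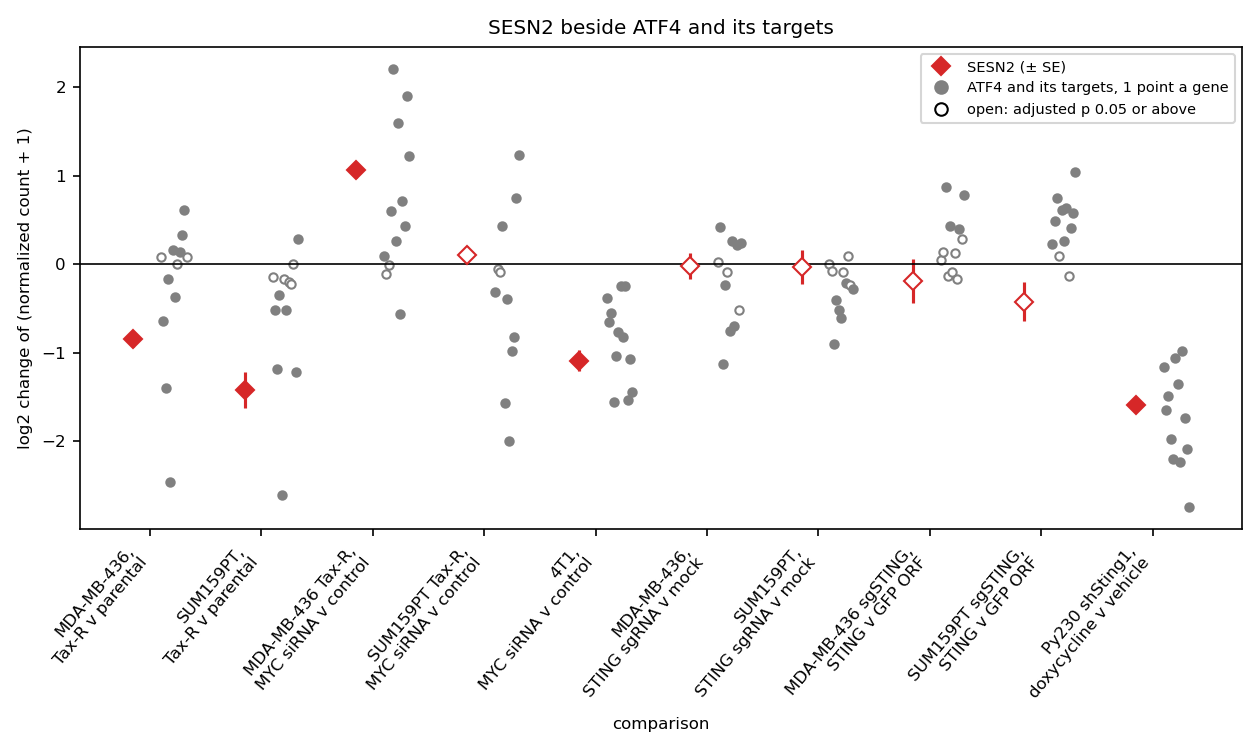
Log2 change of (normalized count + 1) for SESN2 (red diamonds, with SE) and for ATF4 and its targets (grey points, 1 per gene) in the 10 comparisons. Filled symbols have adjusted p below 0.05 and open ones do not. All grey points are below 0 in 4T1 with MYC siRNA and in Py230 with doxycycline, where SESN2 is below 0 too.

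Genes that act on p53 or resemble it were read beside its targets. MDM4 was higher in MDA-MB-436 Tax-R against parental cells (0.27), lower in SUM159PT Tax-R against parental (-0.23), in 4T1 with MYC siRNA (-0.21) and in Py230, and not called in 6. The p53 relatives TP63 and TP73 had larger changes than MDM4. In Tax-R cells TP63 was lower (-1.20 in MDA-MB-436 and -2.37 in SUM159PT) and TP73 higher (0.99 and 2.85). With STING sgRNA TP63 rose in SUM159PT (3.03), from 12.4 and 11.5 in mock to 106 and 90.2 in C1 and 108 and 116 in C2, and with STING ORF it was lower in both lines (-0.86 and -1.53). TP73 was lower in MDA-MB-436 (-1.52) and higher in SUM159PT (1.20) with the sgRNA, and higher in MDA-MB-436 with MYC siRNA (1.75). The checkpoint kinase gene CHEK1 was lower with MYC siRNA in MDA-MB-436 (-0.99) and SUM159PT (-1.29) and in Py230 (-0.93), where ATM, the kinase that signals DNA breaks, was lower too (-1.51).

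A further list of 30 p53 targets moved in both directions as well. With MYC siRNA 14 of 28 tested were higher and 8 lower in MDA-MB-436 (34% and 33.7% of all genes), and 14 and 10 of 28 in SUM159PT (35% and 34.5%), led in both by STEAP3, a ferrireductase (3.19 and 2.39), and TNFRSF10D, a decoy receptor of TRAIL (1.89 and 1.95). In 4T1 11 of 25 were higher and 4 lower (24.7% and 21.5% of all genes), and in Py230 13 and 5 of 25 (32.8% and 35.1%), with STEAP3 again higher there (1.15). Tax-R cells had 7 higher and 11 lower of 30 in MDA-MB-436 (27.7% and 26.9% of all genes) and 8 and 8 of 30 in SUM159PT (23.5% and 22.1%), where CYFIP2 fell most in each (-3.13 and -2.52). With STING sgRNA 4 of 29 were higher and 10 lower in MDA-MB-436 (24.8% and 23% of all genes) and 7 and 9 of 29 in SUM159PT (19.3% and 19.8%). With STING ORF 2 of 27 were higher and 9 lower in MDA-MB-436 (9.2% and 11.9%) and 4 and 5 of 29 in SUM159PT (13.2% and 12.8%). TP53I11 was lower in each of these 4 comparisons (between -1.88 and -1.15).

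The 10 comparisons set side by side give each member its range. CDKN1A ran from -1.85 with STING ORF in SUM159PT to 2.28 with MYC siRNA in MDA-MB-436, GADD45A from -2.99 to 0.53, and PMAIP1 from -2.11 to 1.45. MDM2, often taken as the reference target of active p53, ran only from -0.09 to 0.97, and was higher in SUM159PT with MYC siRNA, MDA-MB-436 with STING sgRNA, MDA-MB-436 with STING ORF and Py230. CDKN1A was higher in 2 of those 4 (SUM159PT with MYC siRNA and Py230), lower in 1 (MDA-MB-436 with STING ORF) and not called in 1. PPM1D was lower in the 3 MYC siRNA comparisons and in Py230. TIGAR (0.40 with STING sgRNA in MDA-MB-436) had no other call, with a range of -0.18 to 0.40. Comparisons in different tables share no libraries, while the reagent groups of a table share their control libraries.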

How the data were processed

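The 10 deposited tables cover 55 RNA-seq libraries, made from RNA of a Maxwell RSC simplyRNA Cells kit, per the labels' protocols. DESeq2, StringTie, featureCounts and HISAT2 appear in the submitters' processing notes with no version or role, and the sources used here give no genome build. The deposited values are a signal: the authors scaled each library's gene read counts by a single factor. Low values are whole multiples of a step, and all values came out as whole reads within a tolerance of 0.05 of a read, which gave the depth of each library. Every column was matched to a sample by its name (0 columns were left without one).

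Where a gene averaged 10 or more over a table, limma (3.58.1, trended variance, R 4.3.3) tested its log2(value + 1), 2-sided, with Benjamini-Hochberg adjustment over all genes of the table and a threshold of 0.05. The groups of a table shared 1 fit, and tables with 2 siRNAs or sgRNA groups were tested as the mean of both against control. Fold changes are ratios of group means, and log2 changes understate the change of low genes. As alternatives, each library was left out, each reagent was used alone, the replicate number was added as a block, values were quantile normalized, the filter was dropped, the pseudocount was raised to 4, and edgeR (4.0.16, quasi-likelihood) was run on the recovered reads. The scripts were tested on simulated data. Summaries and promoter searches used Python 3.11.15, pandas 2.3.3 and numpy 2.4.6. Counting intervals are exact 95% intervals on reads and cover counting error only.

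The members and all gene lists were chosen with earlier results of these data known. All 30 members could be named, with MDM4, MYC and STING1. Of each other list up to 3 genes with the largest called change were named per comparison. Leading genes of marker lists and TP53I11 and STEAP3 across comparisons were singled out after their values were seen. A withheld item is not reported here.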

Additional observations from a re-analysis of the deposited data

Results flagged for a closer look

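In 14 cases every siRNA, sgRNA or Tax-R library of 1 line moved one way and every library of another line the opposite way, with both lines called. None of these differences between lines was itself tested. How many genes outside the list did the same was not counted.

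For Tax-R against parental cells, the log2 changes in MDA-MB-436 and SUM159PT were -0.91 and 0.73 for CDKN1A, -0.29 and 0.6 for PLK2, -0.38 and 0.57 for PLK3, and 0.62 and -0.36 for TP53I3. The first 3 are arrest genes that were lower in MDA-MB-436 and higher in SUM159PT.

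For MYC siRNA in the human lines, GADD45A was at -0.44 in MDA-MB-436 and 0.14 in SUM159PT, and BAX at -0.57 and 0.19. Against 4T1, MDA-MB-436 gave 0.48 for BBC3 where 4T1 gave -0.65, -1.07 for POLH against 0.17, and 1.07 for SESN2 against -1.09. SUM159PT gave 0.14 for GADD45A against -0.44 in 4T1, 0.97 for ZMAT3 against -0.31, 0.56 for BBC3 against -0.65, and -1.41 for POLH against 0.17. The 4T1 call of POLH, the MDA-MB-436 call of BBC3 and the SUM159PT call of GADD45A were each lost without single libraries, as was the SUM159PT call of TP53I3 in Tax-R cells.

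For STING sgRNA, BTG2 was at -0.5 in MDA-MB-436 and 0.83 in SUM159PT, and the first call was lost without mock library 1.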

How the results depend on the processing

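No gene result reversed. Of 5310 values of named genes under other settings, 5085 kept their side of the threshold, 66 became called and 159 lost their call, 98 of these without 1 library and 36 without the filter on low values. A pseudocount of 4 changed no gene's call, and edgeR ended none and added 6. Each left-out library leaves 1 group with fewer samples, and a lone library was assumed to vary like the other groups.

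Dropping the filter brings more genes into both the variance fit and the adjustment, and their parts in the lost calls were not tested apart. Without it, MDA-MB-436 with STING sgRNA had 3 members higher. SUM159PT with STING sgRNA had 3 lower, GDF15 among them, which the filter leaves untested. With STING ORF, MDA-MB-436 then had 328 genes called and 2 members higher and 1 lower, and SUM159PT 884 genes and 1 and 1. Between siRNA-2 and siRNA-1 in MDA-MB-436, and between C2 and C1 in both lines, 0 genes and 0 members were called without the filter. With C1 alone, 3 members were higher and 5 lower in MDA-MB-436, and in SUM159PT 3487 genes were called, with 3 members higher and 1 lower. C2 alone gave 8 and 8 in SUM159PT. edgeR called 95 genes between the siRNAs in MDA-MB-436, against 30 by limma.

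Without 1 library the members called higher ranged from 3 to 5 in MDA-MB-436 Tax-R, 2 to 6 in MDA-MB-436 with STING sgRNA, and 3 to 6 in SUM159PT with STING sgRNA, where those lower ranged from 3 to 6. With STING ORF, MDA-MB-436 had 1247 to 3610 genes called, 3 to 5 members higher and 2 to 4 lower, and SUM159PT 1257 to 5463 genes, 1 to 8 higher and 1 to 5 lower. Between siRNAs, 6 to 44 genes were called in MDA-MB-436 and 0 to 2 in SUM159PT. Between C2 and C1, 5 to 382 genes and 0 to 1 members were called in MDA-MB-436, and 1221 to 3403 genes and 0 to 8 members in SUM159PT.

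No pairing by replicate number was seen over all genes, where deviations of same-numbered libraries correlated between -0.091 and 0.11. Weak correlations cannot exclude that same-numbered libraries were handled together. With the replicate block, 71 genes and 1 member (PLK2, log2 change 0.20, adjusted p = 0.048) were called between the siRNAs in MDA-MB-436 and 195 genes between C2 and C1. The block ended no member's call and added 10 calls of named genes. Apart from the filter, C1 or C2 alone, the Tax-R pair counted as 1 and edgeR between siRNAs, where the construction itself changes the samples or genes tested, the cause of these shifts was not tested. Depth of 5663610 to 13191675 reads limits genes near the filter, SPATA18, TP53INP1 and mouse Gdf15 among them.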
